A study of Homo sapiens with 44 samples.

Results

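Fibrinogen and the other acute phase proteins described here are 10 genes, FGA, FGB, FGG, AGT, LBP, CEBPD, SERPINA3, SAA1, SAA2 and HP, of the 25689 gene symbols in each of the 2 expression tables of this study. They were picked by symbol because FGA, FGG, AGT, LBP and CEBPD were higher after knockdown of IRF2BP2 in A549 cells, so the A549 knockdown values are a description of that choice and were not tested. A549 is a human lung adenocarcinoma line of alveolar epithelial origin, and HEK293-GR is an isogenic human embryonic kidney line that constitutively expresses the glucocorticoid receptor (GR). IRF2BP2 is a nuclear coregulator protein, and the study asked how it bears on the crosstalk of glucocorticoid and tumor necrosis factor (TNF) signalling.

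Among the 44 samples, A549 contributed 24 for RNA sequencing and HEK293-GR 16, and 4 more held HEK293-GR chromatin immunoprecipitated (ChIP) for IRF2BP2. All RNA samples came from cells in steroid-depleted medium that carried 20 nM of an siRNA pool for 72 h, either non-targeting (siNON) or against IRF2BP2 (siIRF2BP2). The cells then received, for 6 h, ethanol as the vehicle (EtOH), 100 nM dexamethasone (dex, a synthetic glucocorticoid) or, in A549 only, 10 ng/ml TNF or dex and TNF together (DT). This gave 8 A549 groups of 3 samples, which the authors' table holds as 1 pooled column per group, and 4 HEK293-GR groups, of which 3 libraries each have a column (4 HEK293-GR samples were not analysed here). The ChIP samples were treated for 1 h, not 6 h, with ethanol or 100 nM dex, and no siRNA is listed for them. The labels do not say that replicates came from separate cultures, so p-values measure only the spread between these samples, which may be technical.

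Acute phase proteins are plasma proteins made mainly by hepatocytes, whose levels change during inflammation. Interleukin 6 acting through STAT3, TNF and interleukin 1 acting through NF-kB and C/EBP proteins, and glucocorticoids acting through GR are the classic signals that raise their transcription in liver, and many of the genes need more than 1 of these signals. Some are also transcribed in lung epithelium, where A549 cells are a known source of fibrinogen.

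The labels were checked first. In HEK293-GR, IRF2BP2 was at 22.9 ± 2.41 FPKM (fragments per kilobase per M tags; SD, n = 3) with siNON and 12.7 ± 0.96 with siIRF2BP2 under vehicle, and at 20.0 ± 0.605 and 10.4 ± 0.752 under dex. In A549 the pooled FPKM of IRF2BP2 was 29.737 with siNON and 26.276 with siIRF2BP2 under vehicle (log2 ratio -0.18, pseudocount 0.1). With both agents it was 25.4 and 17.945 (log2 ratio -0.5). For these pairs the authors' deposited table gives larger steps, log2 -0.31 and -0.62, and its largest, -0.66, belongs to dex. By pooled FPKM the targeted RNA thus stayed at 0.884 of its siNON level under vehicle, a small reduction. Libraries held 18.2 to 28.5 M tags in HEK293-GR, and the pooled A549 columns 35.8 to 56.9 M. Of 9 A549 markers, 7 were over 1 FPKM in A549 and 5 in HEK293-GR, and of 8 HEK293 markers 6 were in HEK293-GR and 2 in A549. EPCAM and CDH1, from the A549 list, were at 40.305 to 56.52 and 4.134 to 8.498 FPKM in HEK293-GR. In A549 they were at 0.545 to 1.141 and 0.575 to 1.729. FPKM divides by exon length in HEK293-GR but by genomic span in A549, so these levels and counts cannot be set between the lines. AKR1B10 lay between 246.252 and 518.743 FPKM in A549 and at or under 0.218 in HEK293-GR, and LIN28B between 10.643 and 20.068 in HEK293-GR and at or under 0.117 in A549. Of 10 hepatocyte markers, 1 (CPS1, 2.01 to 3.45) was over 1 FPKM in A549. ALB lay between 0.071 and 0.165, TTR between 0.152 and 0.522 and APOB at or under 0.003. Division by the genomic span lowers the FPKM of genes with long introns, so this count does not show that the others were absent. The summed FPKM of the hepatocyte list was 3.19 with siNON and 3.59 with siIRF2BP2 under vehicle. It lay between 2.56 and 4.2 over all A549 groups, with CPS1 as its largest part.

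The 3 fibrinogen genes and AGT were higher with siIRF2BP2 under each A549 treatment. Their upstream sequence is shown because they are textbook targets of the interleukin 6 and C/EBP pathways. The promoter table (RefSeq, GRCh38.p14) holds 5 of the 10 members, and the 250 bases before the start are given for the 3 fibrinogen chains, AGT and SERPINA3, with matches in capitals. SERPINA3 was level between the siRNAs under vehicle (log2 0.02) and is shown because the promoter table holds it. FGB has 2 starts in the table, and the downstream one is shown. The motifs searched on both strands were the interleukin 6 response element CTGGGAA and the C/EBP motif TTNNGNAA, and no match of one overlapped a match of the other. Positions are FGA, chr4:154590743-154590992, minus strand; FGB, chr4:154562761-154563010, plus strand; FGG, chr4:154612657-154612906, minus strand; AGT, chr1:230714123-230714372, minus strand; and SERPINA3, chr14:94612141-94612390, plus strand. The expression tables use hg19, so these positions belong to the sequences alone.
FGA: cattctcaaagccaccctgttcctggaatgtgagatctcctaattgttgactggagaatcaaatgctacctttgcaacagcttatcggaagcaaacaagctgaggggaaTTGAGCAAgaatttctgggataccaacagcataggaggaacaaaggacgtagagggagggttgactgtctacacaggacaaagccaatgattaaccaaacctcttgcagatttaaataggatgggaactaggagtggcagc
FGB: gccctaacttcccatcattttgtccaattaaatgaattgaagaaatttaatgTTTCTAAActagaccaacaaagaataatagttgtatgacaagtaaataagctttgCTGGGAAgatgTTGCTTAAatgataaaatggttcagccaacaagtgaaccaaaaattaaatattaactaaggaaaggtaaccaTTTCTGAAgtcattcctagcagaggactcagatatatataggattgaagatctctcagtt
FGG: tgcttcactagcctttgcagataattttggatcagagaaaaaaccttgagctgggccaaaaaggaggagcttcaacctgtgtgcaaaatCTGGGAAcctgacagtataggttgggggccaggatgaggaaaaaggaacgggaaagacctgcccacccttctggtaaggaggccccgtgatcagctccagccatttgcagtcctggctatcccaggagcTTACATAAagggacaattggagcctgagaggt
AGT: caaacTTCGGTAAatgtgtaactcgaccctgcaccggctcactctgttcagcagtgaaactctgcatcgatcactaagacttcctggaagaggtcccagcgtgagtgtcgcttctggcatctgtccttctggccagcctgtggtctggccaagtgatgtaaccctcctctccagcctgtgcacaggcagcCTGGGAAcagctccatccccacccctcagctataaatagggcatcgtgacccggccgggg
SERPINA3: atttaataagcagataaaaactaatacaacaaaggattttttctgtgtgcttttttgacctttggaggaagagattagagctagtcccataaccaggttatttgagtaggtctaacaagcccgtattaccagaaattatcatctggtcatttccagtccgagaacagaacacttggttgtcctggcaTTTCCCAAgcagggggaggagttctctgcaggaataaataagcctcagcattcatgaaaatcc

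CTGGGAA was present in 3 of the 5 windows, beginning 143 bases before the start in FGB, 161 in FGG and 60 in AGT, and in 9.15% of the 35116 windows of 250 bases in the table. The C/EBP letters were present in 5 of 5 windows and in 33.2% of all windows. FGB had 3 matches of the C/EBP letters, beginning 198, 132 and 60 bases before the start, and FGA had 1, at 141 bases. These are letter matches, and binding to them was not measured here. No IRF2BP2 ChIP peak of HEK293-GR cells, treated for 1 h, lay near a member. The nearest of 1108 vehicle peaks was 159 kb from HP, and the nearest of 1400 dex peaks was 212 kb from CEBPD. The share of all genes without a near peak was not computed, so nothing particular to the members is read from this. Most members had too few reads to be tested in HEK293-GR, and IRF2BP2 binding in A549 was not measured.

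The 3 fibrinogen chains were higher with siIRF2BP2 than with siNON under each A549 treatment. FGA, FGB and FGG encode the alpha, beta and gamma chains, which are assembled in equal number into the fibrinogen hexamer, and they lie in 1 cluster on chromosome 4 (hg19 positions 155504280 to 155511897, 155484132 to 155493915 and 155525286 to 155533902). With siNON, FGA was at 12.486 FPKM under vehicle, 19.726 under dex, 11.046 under TNF and 15.048 with both agents. With siIRF2BP2, FGA was at 41.578, 65.935, 40.433 and 34.009 FPKM in the same order. Every siIRF2BP2 column was thus above every siNON column, and the step was smallest with both agents.

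FGB was at 9.155, 10.725, 9.588 and 9.427 FPKM with siNON (vehicle, dex, TNF, both) and at 22.623, 25.428, 20.33 and 15.32 with siIRF2BP2. FGG was at 5.692, 6.464, 5.983 and 5.582 FPKM with siNON and at 21.434, 23.583, 20.187 and 14.552 with siIRF2BP2. Neither chain overlapped between the siRNAs. The members were chosen on this contrast, and the share of all genes without overlap was not computed, here or for FGA and AGT. Within siNON, FGB lay between 9.155 and 10.725 FPKM and FGG between 5.582 and 6.464. In the authors' deposited table the log2 fold change with knockdown under vehicle was 1.64 for FGA, 1.20 for FGB and 1.77 for FGG, and with both agents it was 1.12, 0.65 and 1.33. The FPKM of the A549 table divides by the genomic span, introns included, and so cannot be set between genes.

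**Figure D1:**
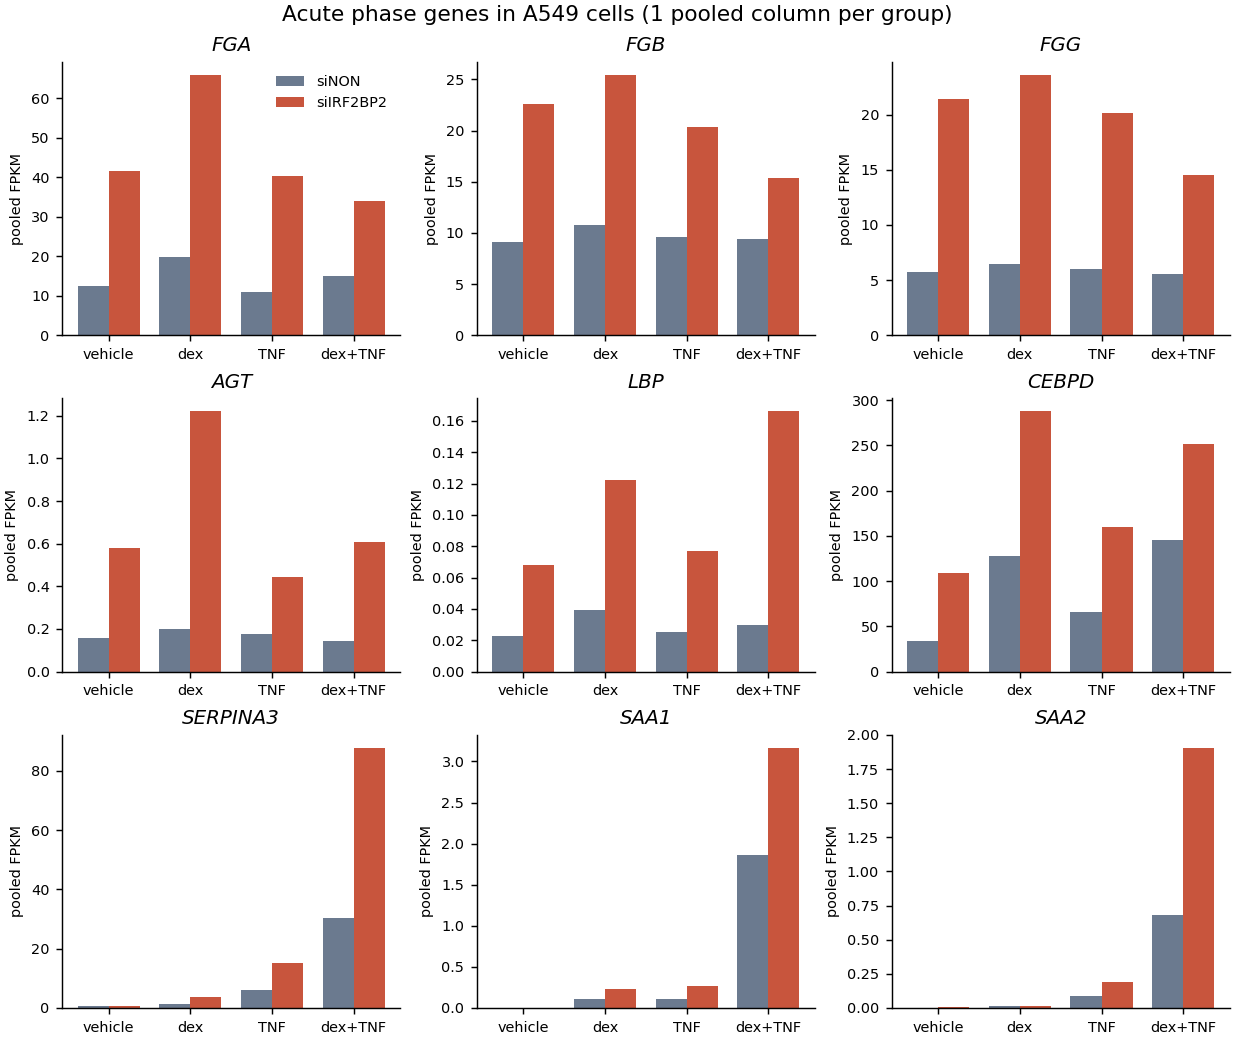
Pooled FPKM of 9 members in the 8 A549 groups, 1 column per group with no error bar because the authors pooled the replicates; grey bars are siNON and red bars siIRF2BP2. The 3 fibrinogen chains are higher with siIRF2BP2 under each treatment, while SERPINA3, SAA1 and SAA2 reach their highest levels with dex and TNF together.

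Per kilobase of exon, using the exon lengths of the HEK293-GR table (3647 bases for FGA, 3618 for FGB and 1750 for FGG), the chains were nearly level in siNON cells under vehicle, at 26.1, 24.8 and 26.5 reads per kilobase per M tags. The highest was 1.07 times the lowest. With siIRF2BP2 under vehicle the same quantity was 86.8 for FGA, 61.2 for FGB and 98.9 for FGG, and the highest was 1.62 times the lowest. The ratio of FGA to FGB was 1.05 in siNON vehicle cells, 1.42 with dex, 1.42 with siIRF2BP2 and 2.01 with siIRF2BP2 and dex. The ratio of FGG to FGB moved with the siRNA, from between 1.00 and 1.07 over the siNON groups to between 1.58 and 1.70 over the siIRF2BP2 groups. These ratios come from single pooled columns and have no replicate check. The level of 1 chain against another rests on the listed exon lengths, while a change in a ratio between groups does not. The A549 reads were recovered through a length that is the genomic span, so they may include intronic reads. The near level values in siNON cells therefore do not measure the proportions of the spliced chain RNAs.

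**Figure D2:**
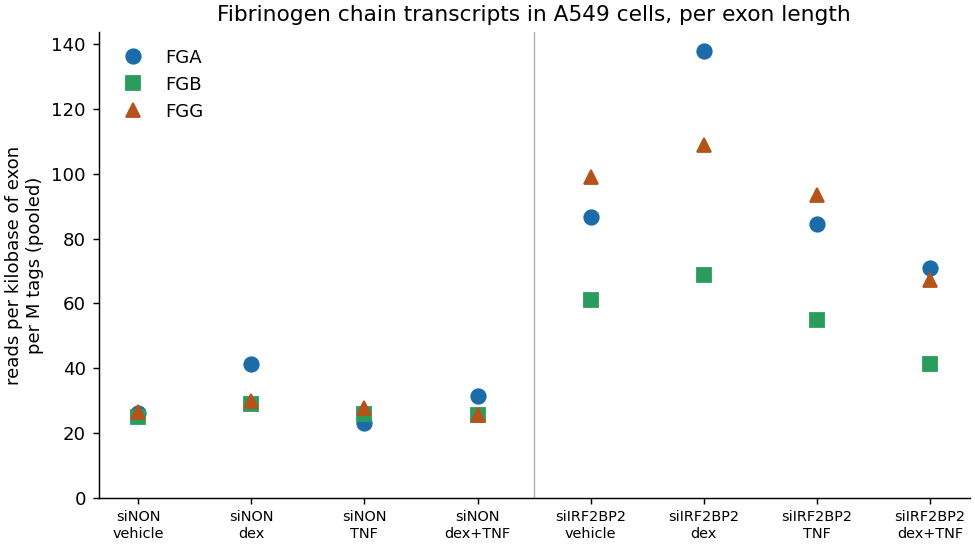
Reads per kilobase of exon per M tags for FGA, FGB and FGG in the 8 A549 groups, 1 pooled value each. The reads may include intronic ones. The 3 chains lie together in siNON cells under vehicle (26.1, 24.8 and 26.5), whereas with siIRF2BP2 FGB lies below the other 2 in each treatment.

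Of the 3 chains, FGA had the highest dex values under both siRNAs, and the difference between chains was not tested. In the authors' deposited table FGA rose with dex by a log2 fold change of 0.75 in siNON cells (false discovery rate, FDR, 1.01e-09) and by 0.70 in siIRF2BP2 cells (FDR 1.6e-40). FGB and FGG had log2 values of 0.33 and 0.29 in siNON cells, with FDR of 0.0591 and 0.268. In siIRF2BP2 cells FGB rose by 0.21 (FDR 0.00264) and FGG by 0.18 (FDR 0.0117), which are smaller values than those in siNON cells that did not pass. No chain passed with TNF alone under either siRNA: the log2 values lay at -0.06, 0.18 and 0.15 in siNON cells and 0.07, -0.04 and 0.03 in siIRF2BP2 cells for FGA, FGB and FGG.

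Both agents together had opposite signs under the 2 siRNAs for FGA. Against vehicle, FGA rose by 0.37 in siNON cells (FDR 0.000963) and fell by 0.16 in siIRF2BP2 cells (FDR 0.0397), both on the log2 scale of the authors' deposited table. In siIRF2BP2 cells FGB fell by 0.42 (FDR 4.01e-08) and FGG by 0.40 (FDR 1.83e-06), while in siNON cells their values were 0.14 and 0.04 (FDR 0.502 and 1.0). When TNF was added to dex in siIRF2BP2 cells, FGA fell by 0.84 (FDR 1.41e-44), FGB by 0.61 (FDR 6.46e-17) and FGG by 0.56 (FDR 1.07e-11). In siNON cells the same addition lowered FGA by a log2 change of -0.37 (FDR 0.00837), and FGB and FGG were at -0.18 and -0.23 (FDR 0.578 and 0.48). The difference between the siRNAs was not tested, and the comparisons within an siRNA share its vehicle, dex or TNF samples.

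AGT encodes angiotensinogen, the precursor of the angiotensin peptides and a liver acute phase protein (hg19, chromosome 1, 230838272 to 230850336). It was at 0.157, 0.198, 0.178 and 0.144 FPKM with siNON (vehicle, dex, TNF, both) and at 0.579, 1.22, 0.443 and 0.609 with siIRF2BP2. The levels were low on this scale, which divides by the genomic span, but the siRNAs did not overlap, and the dex column after knockdown stood apart. Dex raised AGT in siIRF2BP2 cells of the authors' deposited table by a log2 fold change of 1.06 (FDR 3.38e-07), against 0.43 in siNON cells (FDR 0.31). When TNF was added to dex in siIRF2BP2 cells, AGT fell by 0.89 on that scale (FDR 1.3e-10), to a column close to that of vehicle.

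LBP encodes lipopolysaccharide-binding protein, which passes bacterial lipopolysaccharide to CD14 (hg19, chromosome 20, 36974814 to 37005653). It was at 0.023, 0.039, 0.025 and 0.03 FPKM with siNON and 0.068, 0.122, 0.077 and 0.166 with siIRF2BP2. These values divide by a span of 30839 bases, where the exons hold 1877. Per kilobase of exon per M tags LBP had 0.375 to 0.637 reads with siNON and 1.12 to 2.72 with siIRF2BP2, which may include intronic reads. After knockdown the highest LBP column was that with both agents. LBP rose in siIRF2BP2 cells of the authors' deposited table with dex (log2 0.85, FDR 0.00701) and with both agents (log2 1.41, FDR 9.05e-11), and its siNON values were log2 0.78 and 0.45 (FDR 0.139 and 0.602). LBP was the only member besides SERPINA3, SAA1 and SAA2 that rose in siIRF2BP2 cells when TNF was added to dex (log2 0.57, FDR 0.00449).

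CEBPD encodes C/EBP delta, a transcription factor induced early in the acute phase that binds promoters of other members. In A549 it was at 33.834, 127.886, 66.125 and 145.032 FPKM with siNON (vehicle, dex, TNF, both) and at 109.248, 287.598, 159.532 and 251.793 with siIRF2BP2. Dex and TNF each gave a higher column than vehicle, and under each treatment the siIRF2BP2 column was the higher. CEBPD rose with dex in siNON cells of the authors' deposited table by log2 2.04 (FDR 6.95e-42) and in siIRF2BP2 cells by 1.34 (FDR 0.000676), and with TNF by 1.10 (FDR 1.8e-10) and 0.78 (FDR 0.0205). The knockdown value of CEBPD in that table was 1.45 under vehicle but 0.73 under dex (FDR 0.0493) and 0.51 with both agents (FDR 0.344). The ratio of the pooled FPKM gave 1.17 under dex and 0.80 with both agents on the log2 scale (pseudocount 0.1), a larger step than the authors' fold change.

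SERPINA3, SAA1 and SAA2 rose with TNF, as CEBPD did, and were highest with both agents. SERPINA3 encodes alpha-1-antichymotrypsin, an inhibitor of neutrophil cathepsin G (hg19, chromosome 14, 95078714 to 95090390). It was at 0.7, 1.19, 5.912 and 30.234 FPKM with siNON (vehicle, dex, TNF, both) and at 0.74, 3.618, 15.334 and 87.789 with siIRF2BP2. Under vehicle the siRNAs were level (log2 0.02 in the authors' deposited table, FDR 1.0), and in the 3 other treatments the siIRF2BP2 column was the higher, by log2 1.55, 1.30 and 1.49. In siNON cells SERPINA3 rose with dex by log2 0.82 (FDR 6.77e-05), with TNF by 3.20 (FDR 1.67e-105), and when dex was added to TNF by a further 2.37 (FDR 6.23e-137). In siIRF2BP2 cells the dex step alone was 2.35 (FDR 3.72e-88) and dex added to TNF gave 2.55 (FDR 2.55e-234).

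SAA1 and SAA2 encode the inducible serum amyloid A apolipoproteins, near-identical genes on chromosome 11 (hg19, 18287808 to 18291523 and 18259780 to 18270221) between which reads may be split, so their separate values are uncertain. SAA1 had 0, 22, 17 and 339 reads with siNON (vehicle, dex, TNF, both) and 0, 31, 47 and 421 with siIRF2BP2. It was not detected under vehicle with either siRNA, and with both agents it was at least 131-fold higher in siNON cells and at least 147-fold higher in siIRF2BP2 cells, taking 3 reads per column as the floor. SAA2 had 1, 8, 39 and 348 reads with siNON and 2, 6, 93 and 712 with siIRF2BP2. SAA2 also shares its span with the read-through gene SAA2-SAA4 on the same strand, and of the reads on its long transcript 84.5% (siNON) and 86.2% (siIRF2BP2) lay outside the short transcript with both agents, so SAA2 and the read-through cannot be told apart.

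Dex added to TNF raised SERPINA3, SAA1 and SAA2 further under both siRNAs. For SAA1 the authors' deposited table gives log2 4.11 in siNON cells (FDR 4.27e-56) and 3.57 in siIRF2BP2 cells (FDR 8.42e-83). It raised SAA2 by 2.97 (FDR 3.18e-41) and 3.37 (FDR 8.73e-101). The level with both agents was set against the sum expected from the single agents (dex plus TNF minus vehicle, in FPKM). SERPINA3 reached 4.72 times that sum in siNON cells and 4.82 times in siIRF2BP2 cells, SAA1 8.88 and 6.34 times and SAA2 7.02 and 9.57 times. Of all genes, 4.52% with siNON and 4.81% with siIRF2BP2 exceeded 2 times the sum, and of the 10 members these 3 did under both siRNAs.

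HP, at 3 reads or fewer, was not compared with the sum, and of the other 6 members all but LBP stayed under it with both siRNAs. The fibrinogen chains were at 0.823 (FGA), 0.845 (FGB) and 0.826 (FGG) of it in siNON cells and at 0.525, 0.662 and 0.652 in siIRF2BP2 cells. CEBPD was at 0.905 and 0.745, and AGT at 0.658 and 0.562. LBP was at 0.732 of the sum in siNON cells and at 1.27 in siIRF2BP2 cells. These ratios were formed from pooled columns and carry no error.

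HP encodes haptoglobin, which binds free haemoglobin, and it was the one member with almost no reads in A549, at or under 0.009 FPKM in all 8 columns. It was left out of the 15607 A549 genes counted below (mean of at least 10 reads per column), and 9 of the 10 members were in.

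Counted over members, knockdown in A549 passed an FDR of 0.05 upward in the authors' deposited table for 6 of 10 under vehicle (17.2% of all genes), 7 under dex (16.2%), 9 under TNF (20.9%) and 8 with both agents (19%), and downward for none (19.3%, 17.6%, 20.4% and 19.2% of all genes). This is the contrast that chose the members. The median log2 value over the 10, HP included, was 1.31 under vehicle, and 0.01 over all genes. The plot of knockdown changes shows that AGT was highest under dex, LBP with both agents, and FGA, FGB, FGG and CEBPD lowest with both agents.

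**Figure D3:**
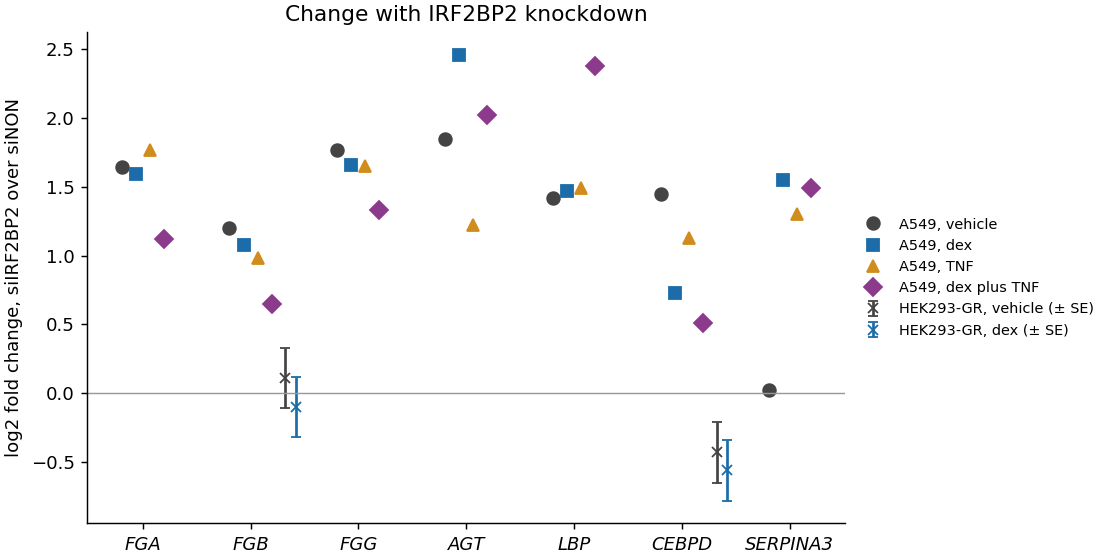
Log2 fold change of siIRF2BP2 over siNON for 7 members; filled symbols are the authors' deposited A549 values by treatment, and crosses with bars are HEK293-GR estimates from limma ± SE (n = 3 libraries per group). All A549 symbols lie at or above 0.02, whereas both HEK293-GR values of CEBPD lie below 0 (-0.43 and -0.56).

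For the treatments, 4 members rose with dex in siNON cells (FGA, CEBPD, SERPINA3 and SAA1), where 6.54% of all genes rose, and 8 in siIRF2BP2 cells, where 14.2% did. These counts do not compare the sizes of the responses. Of the members that passed only in siIRF2BP2 cells, AGT had a larger log2 value there (1.06, against 0.43 with siNON). FGB and FGG had smaller ones (0.21 and 0.18, against 0.33 and 0.29), and LBP was alike (0.85, against 0.78). With TNF the same number passed under both siRNAs, the 4 being CEBPD, SERPINA3, SAA1 and SAA2, beside 10.8% and 19.8% of all genes. With both agents 5 rose in siNON cells (12.3% of all genes), and in siIRF2BP2 cells 5 rose (22.8%) and the 3 fibrinogen chains fell (21.2%). Dex added to TNF raised 5 members in siNON cells (9.88% of all genes), and in siIRF2BP2 cells it raised 5 (14%) and lowered the 3 fibrinogen chains (12%). TNF added to dex raised 3 (6.77%) and lowered FGA (4.33%) in siNON cells, and in siIRF2BP2 cells it raised 4 (17.9%) and lowered the 3 chains and AGT (14.2%). The median log2 value over the members was 0.77 with dex, 0.24 with TNF and 0.41 with both in siNON cells, against -0.01, -0.02 and -0.02 over all genes. In siIRF2BP2 cells it was 0.96, 0.17 and 1.15, against 0.00, -0.01 and -0.02. The member medians include HP, which the values over all genes leave out. HP, at 0.95 from 1 and 2 reads, is a middle value behind the 1.15. The deposited A549 tests give no spread between replicates, and whether the responses differ between the siRNAs was not tested.

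In HEK293-GR cells most of the members were at the edge of detection. FGA had 2 reads in all 12 libraries together, FGG at most 4, AGT 3, LBP 3, SAA1 2, SAA2 10 and HP 2 in any library. Of the 10 members, 2 (CEBPD and FGB) had the 10 reads in 3 libraries needed for the test of 15594 genes. FGB had 3 to 16 reads per library, and its mean was 0.109 ± 0.0146 FPKM with siNON and 0.129 ± 0.0427 with siIRF2BP2 under vehicle (SD, n = 3). Its knockdown estimate was 0.11 ± 0.22 (SE) under vehicle and -0.10 ± 0.22 under dex on the log2(FPKM + 0.1) scale, with limma adjusted p-values of 0.746 and 0.742. At levels near the pseudocount this scale understates a change.

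CEBPD was the member that HEK293-GR cells transcribed clearly. It was at 3.038, 2.048 and 2.663 FPKM in the siNON vehicle libraries and at 23.542, 20.832 and 18.216 under dex. With siIRF2BP2 it was at 2.975, 1.199 and 1.821 under vehicle and at 15.036, 14.58 and 12.744 under dex. The dex libraries lay above all vehicle libraries. Under dex every siIRF2BP2 library lay below every siNON library, while under vehicle the siRNAs overlapped. How many of all genes separate in this way was not counted, here or for SERPINA3.

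CEBPD rose with dex by log2 2.98 ± 0.22 in siNON cells (SE, n = 3, limma adjusted p = 4.4e-08) and by 2.85 ± 0.22 in siIRF2BP2 cells (limma adjusted p = 1.06e-07), where 20.7% and 10.5% of all genes passed in either direction. The difference of the dex responses was -0.13 ± 0.31 (limma adjusted p = 0.925, with 0.0128% of all genes passing), which does not show that the responses are alike. Knockdown gave -0.43 ± 0.22 under vehicle (limma adjusted p = 0.198; 15.5% of all genes passed) and -0.56 ± 0.22 under dex (limma adjusted p = 0.0552; 39.7% passed). The value under dex missed the threshold by little and passed it in 8 of the 20 other settings run. Its log2 values were -0.65 to -0.47 when 1 library was left out and -0.56 to -0.51 in the others. With 1 library left out, it passed only without a vehicle library, which is not part of this comparison. It passed in no fit without a dex library. The authors' deposited table gives -0.59 (FDR 5.66e-08), with 46.5% of all genes passing there. Under vehicle the value lay between -0.75 and -0.13 with 1 library left out (limma adjusted p from 0.00903 to 0.732), and it passed in 1 of 12 such fits, without siIRF2BP2 EtOH replicate 1. The HEK293-GR estimates were thus negative and the A549 values positive, and the difference between the lines was not tested because their tables were made separately.

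**Figure D4:**
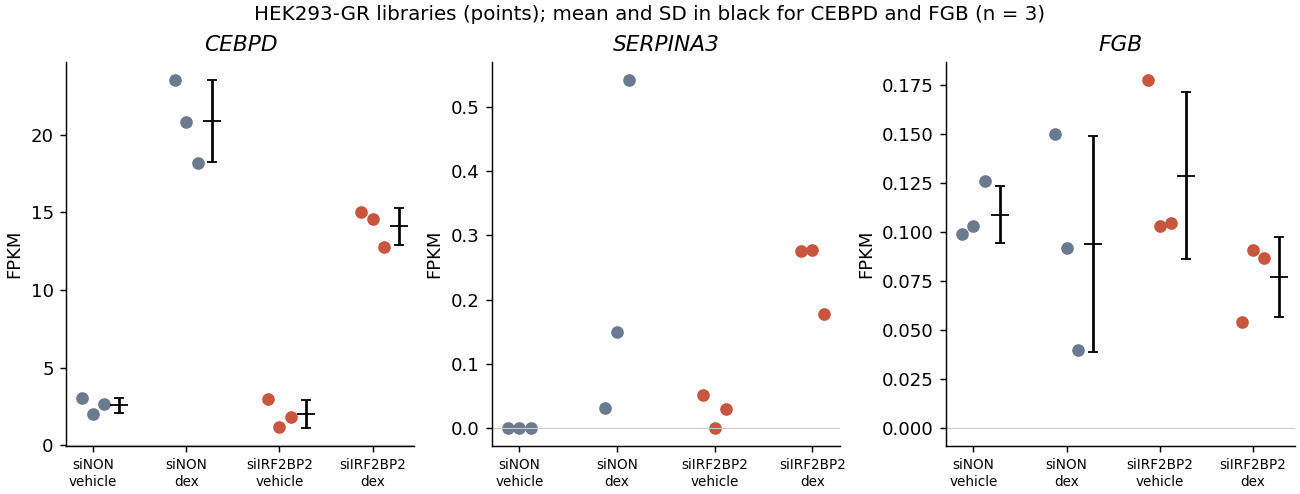
FPKM of CEBPD, SERPINA3 and FGB in each HEK293-GR library (points, 3 per group; grey siNON, red siIRF2BP2), with mean and SD in black for CEBPD and FGB. CEBPD is higher in all dex libraries and lower with siIRF2BP2 than with siNON under dex, and SERPINA3 is near 0 under vehicle.

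SERPINA3 was the other member with more reads under dex in HEK293-GR. It had 0, 0 and 0 reads in the siNON vehicle libraries and 1, 5 and 18 under dex. With siIRF2BP2 it had 2, 0 and 1 reads under vehicle and 9, 8 and 8 under dex. The groups did not overlap under either siRNA, and the exact two-sided permutation test on FPKM gave p = 0.1 in both, the smallest p that 3 against 3 allows. Over the group, dex gave at least 8.11-fold more with siNON (floor of 3 reads over the group), a bound of 3.06-fold without replicate 3, which held 18 of the 24 dex reads, and 8.65-fold more with siIRF2BP2 (exact 95% interval 2.64 to 44.8, counting error only). The FDR of the authors' deposited table was 0.0332 with siNON (16.4% of all genes passed) and 0.0883 with siIRF2BP2 (10.5% passed).

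Genes of the surrounding pathways were counted in lists. Of 17 measured genes of interleukin 6-type cytokine signalling, 11 rose and 3 fell with both agents in siNON A549 cells (12.3% and 10.2% of all genes; median log2 0.94, and -0.02 over all genes), in the authors' deposited table. Among them the cytokine IL6 rose by log2 3.66 (from 0.083 to 1.01 FPKM), the kinase JAK1 by 1.38 and the transcription factor STAT3 by 1.00, while the cytokine IL11 fell by 3.41. IL6 was higher with TNF alone, at 3.332 FPKM, and dex added to TNF lowered it by a log2 change of -1.72 (FDR 1.02e-23). In siNON HEK293-GR cells 5 of 16 rose and 1 fell with dex (20.7% of all genes passed in either direction), JAK1 by 0.98 and STAT3 by 0.65 among them (limma adjusted p = 4.15e-08 and 2.9e-05). Knockdown under vehicle in A549 raised 3 of the 17 and lowered 5 (17.2% and 19.3% of all genes, so the share that rose is near the background; median -0.05), the lowered genes including IL11 (-1.79) and PTPN11 (-0.66).

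Of 15 measured C/EBP and liver-enriched transcription factors in A549, 5 rose and 1 fell with knockdown under vehicle (17.2% and 19.3% of all genes; median log2 0.19, and 0.01 over all genes). HNF4A went from 0.627 to 1.107 FPKM (log2 0.76, FDR 2.27e-11) and NR5A2 from 0.263 to 0.447 (log2 0.63, FDR 2.35e-11), in the authors' deposited table. FOXA3 was the gene that fell, from 1.117 to 0.47 FPKM (log2 -1.31, FDR 1.34e-12). With both agents in siNON cells 3 of the 15 rose and 5 fell (12.3% and 10.2% of all genes; median -0.21), FOXA1 falling by 1.10.

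Of 18 other plasma acute phase genes measured in A549, 5 rose and 3 fell with knockdown under vehicle (17.2% and 19.3% of all genes; median log2 0.06, and 0.01 over all genes), where the complement gene CFB rose by 0.79 and the urokinase receptor gene PLAUR fell by 1.57 in the authors' deposited table. With both agents in siNON cells 6 rose and 1 fell (12.3% and 10.2% of all genes; median 0.27): C3 rose by log2 2.39 and CFB by 2.36, both complement genes, and the pentraxin PTX3 by 4.45. Of 8 plasma proteins that fall in the acute phase, 1 rose (TTR, 1.25) and 2 fell (ALB, -0.91, and TF, -0.63) with knockdown under vehicle (median -0.30). Of 7 renin and angiotensin genes other than AGT, 0 rose and 2 fell (median -0.14), the peptidase gene ANPEP by 1.21 and ATP6AP2 by 0.37. Of 9 genes of lipopolysaccharide recognition other than LBP, 3 rose and 1 fell (median 0.01), MYD88 rising by 0.48 and CD14 by 0.55. These last 3 counts stand beside the same 17.2% of all genes rising and 19.3% falling, and nothing particular to the lists is read from such small numbers.

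By likeness of pattern over the 8 A549 columns, the genes nearest to FGG among 12576 included RRM2 (Pearson r 0.996 on log2(FPKM + 0.1)), CCDC66 (0.993), SMARCD1 (0.991) and CIT (0.991). FGB was the eighth nearest (r 0.990), while FGA had r 0.960 and rank 283, and SERPINA3 r 0.0843. The 8 points share 2 siRNAs and fall into those 2 clusters, and r is a description with no test.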

How the data were processed

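Values came from 2 deposited tables and 2 peak files on hg19, per the submitters' processing notes, which also name FastQC, Trimmomatic 0.33, HOMER, Bowtie2, TopHat2, Bowtie 0.12.9, bedtools and edgeR with no role. Per the file headers, expression is FPKM, scaled by the authors with a length column (exon length in HEK293-GR, genomic span for 98.6% of A549 transcripts). The deposited log2 fold changes, p-values and FDR are the authors', and how replicates entered them is not given in the sources used here. The deposited peak score was not used.

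FPKM times length gave whole reads (within 0.01 beyond rounding) for nearly all of the 821 to 1007 transcripts (A549) and 3207 to 3670 genes (HEK293-GR) per column on which this could be checked, hence the tags. HEK293-GR was tested with limma 3.58.1 (R 4.3.3; trend) on log2(FPKM + 0.1) over 15594 genes (10 or more reads in 3 or more of 12 libraries), all 4 groups in 1 fit, with Benjamini-Hochberg adjustment at 0.05. The densest HEK293-GR gene of a library had 2.83 to 3.11 reads per base, and CEBPD 0.0289 to 0.477. For A549, 1 transcript per gene (most reads) was used, with the authors' values and no test. Alternatives covered the pseudocount, low-value filter, scaling, voom, replicate block, groups fitted, libraries left out, FDR and transcript, and, chosen after seeing the data, SERPINA3 with each dex library left out. The script was tested on simulated data. All 10 members, IRF2BP2, up to 4 genes per list and comparison with the smallest p or FDR, and the 5 genes most like FGG were to be named; some of these are not reported here. Members and lists were chosen with earlier results of these data known, and so were the sums of single agents, the exon-length ratios and the motifs.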

Additional observations from a re-analysis of the deposited data

How the results depend on the processing

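In HEK293-GR the count of members called changed in these settings. Knockdown under dex went from 0 to 1 (CEBPD) with a pseudocount of 1, with limma voom on whole reads, when only the groups compared were fitted, and with the replicate block; leaving out 1 library gave 0 to 1. Knockdown under vehicle gave 0 to 1 when 1 library was left out. The dex response with siNON went from 1 to 2 with no filter on low values, where SERPINA3 joined (log2 1.46, limma adjusted p = 0.0463). The difference of the dex responses of CEBPD turned from -0.13 to 0.02 without siNON EtOH replicate 2 and to 0.19 without siIRF2BP2 EtOH replicate 1 (range over libraries left out, -0.43 to 0.19). The causes were not tested. For the count of 0 under vehicle, CEBPD had an unadjusted p of 0.0707 and FGB of 0.606.

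All genes called ranged, with 1 library left out, from 1170 to 4827 for knockdown under vehicle (2414 with all), from 4142 to 7070 under dex (6188), from 1978 to 3927 for dex with siNON (3235), from 1249 to 2058 with siIRF2BP2 (1630) and from 0 to 6 for the difference (2). Fitting only the groups compared gave 782 for knockdown under vehicle. The replicate numbers share only a number (correlations of same-numbered deviations from -0.377 to 0.261). The block moved CEBPD under dex to an adjusted p of 0.0216 and changed no other call of a member.

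In A549 the transcript with the highest mean FPKM was another one for FGA alone, whose 14 values kept their direction. The log2 ratio of the pooled FPKM moved 79 of 126 member values from the authors' fold change with a pseudocount of 0.1 and 50 with 0.01. LBP with knockdown went from 1.42 to 0.45 under vehicle and from 1.49 to 0.50 under TNF (pseudocount 0.1), which understates low genes by construction. The sign turned for 4 values that had not passed (FGA and FGG with TNF and CEBPD with TNF added to dex in siIRF2BP2 cells, FGG with both agents in siNON cells). At FDR 0.01 no count of members moved by over 1.5 times. What limits these results is 1 pooled column per A549 group, low reads for AGT, LBP, SAA1 and SAA2, and 8 of 10 members under the read minimum in HEK293-GR.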
